A study of Mus musculus with 16 samples.

Results

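Transcripts of the lung epithelium were measured in RNA of sorted lung endothelial cells. The 9 genes described are Sftpc, Sftpa1, Sftpb, Sftpd, Napsa, Scgb1a1, Bpifa1, Cbr2 and Hopx, taken by gene symbol from the 17715 entries of the deposited expression table. Each symbol had a value in all 16 libraries. Sftpc and Scgb1a1 were among the most abundant transcripts of these sorts, at ranks 64 and 39 by mean RPKM. The mean level was highest in mice with a primary tumour for 8 of the 9 genes and lowest in mice with metastases for 6. Hopx had its highest mean in tumour-free mice.

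The lungs came from female C57BL/6N mice. Tumours came from Lewis lung carcinoma (LLC) cells, a C57BL/6-derived mouse lung cancer line, placed under the skin. The 4 groups were wild-type mice without a tumour (d0), mice with the primary tumour (d15), mice after its resection (d22) and mice with metastases (d36), each with 4 libraries. The series design calls the libraries of a group independent biological replicates, and p-values measure the spread between them. Replicate numbers are those of the labels (d0: 1 to 4, d15: 3 to 6, d22: 1 and 4 to 6, d36: 1 and 7 to 9), and values are listed in this order. For replicate 1 of d36 the title names day 29, whereas the time point field, which was used, reads d36. No source used here gives the antibodies or the gate of the sort.

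The alveolus of the lung is lined by flat type I cells, which carry gas exchange, and by cuboidal type II cells, which make surfactant. Surfactant is a film of lipids and the proteins SP-A, SP-B, SP-C and SP-D that keeps alveoli open and binds microbes. The airways are lined by secretory club cells, ciliated cells and, in larger airways, further secretory cells. Endothelial cells lie directly beneath the alveolar epithelium, across a thin shared basement membrane.

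Values are RPKM, reads per kilobase of transcript scaled to sequencing depth, so levels can be compared between genes. Approximate depth was 93.4 to 152.1 M (mega) reads per library. Pan-endothelial markers were high in every library, with Pecam1, an adhesion molecule of endothelial junctions, at 564 to 827 RPKM and Cdh5, the endothelial cadherin, at 248 to 385 RPKM. Epcam, the adhesion molecule that defines epithelial cells, did not exceed 0.174 RPKM in any library. Cyp2f2, a detoxifying enzyme of mouse club cells, did not exceed 0.142 RPKM, and Foxj1, the master regulator of motile cilia, did not exceed 0.249 RPKM. These 3 markers were singled out after their values were seen, and other genes of the same lists were well above them. In the club cell list Fmo2 ran from 16.1 to 35.0 RPKM and Scgb3a1 from 5.86 to 41.3 RPKM over the 16 libraries, and in the ciliated list Tppp3 ran from 32.5 to 130 RPKM and Cd24a from 19.0 to 55.9 RPKM. The 9 genes together made up 0.112% to 1.15% of the RPKM of a library. In bulk RNA, fewer cells of a type and less RNA per cell cannot be told apart.

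Promoter sequences are shown for Sftpb and Sftpa1, the surfactant genes among the 5 of the 9 genes with an entry in the RefSeq promoters (GRCm38.p6), and for Hopx, the gene whose highest mean was at d0. The 250 bases before each start are printed 5′ to 3′ on the strand of the gene, with matches to CTCAAG, the core of the binding motif of NKX2-1, a lung epithelial transcription factor, in capitals (CTTGAG where it lies on the opposite strand).
Sftpb chr6:72304360-72304609 plus strand: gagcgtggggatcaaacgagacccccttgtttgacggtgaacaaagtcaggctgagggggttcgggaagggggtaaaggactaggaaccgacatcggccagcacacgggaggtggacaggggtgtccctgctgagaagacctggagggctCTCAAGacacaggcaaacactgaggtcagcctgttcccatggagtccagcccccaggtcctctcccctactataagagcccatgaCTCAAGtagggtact
Sftpa1 chr14:41131538-41131787 plus strand: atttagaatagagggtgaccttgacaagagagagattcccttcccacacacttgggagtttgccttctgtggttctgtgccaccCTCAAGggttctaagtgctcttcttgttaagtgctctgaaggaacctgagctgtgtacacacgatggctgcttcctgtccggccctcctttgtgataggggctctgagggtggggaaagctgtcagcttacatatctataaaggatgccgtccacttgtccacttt
Hopx chr5:77115124-77115373 minus strand: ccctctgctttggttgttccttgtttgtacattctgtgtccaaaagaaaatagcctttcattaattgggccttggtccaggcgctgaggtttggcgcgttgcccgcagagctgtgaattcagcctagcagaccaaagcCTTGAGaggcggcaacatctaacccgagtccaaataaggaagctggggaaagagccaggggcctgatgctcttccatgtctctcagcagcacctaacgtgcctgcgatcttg
Sftpb had the motif at -100 and -15 from the start, Sftpa1 at -166 and Hopx at -112 on the opposite strand. Bpifa1 had it at -213 on the opposite strand, and no match was found before Cbr2 or the other listed Hopx start. On either strand, 13.3% of all 32851 promoter windows of this length held the motif. The forkhead motif TGTTTAC, in 3.17% of windows, and the C/EBP motif TTGCNNAA, in 9.56%, were searched on both strands and had no match in the windows of these genes. None of the motifs' letters overlap at the matches shown. A match describes the letters of the window and no binding was measured.

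The surfactant genes follow first. Sftpc (chromosome 14, 70520949 to 70524081, minus strand, mm10, protein coding) codes for SP-C, a small hydrophobic protein made by alveolar type II cells. At d15 its level was 619, 1827, 673 and 779 RPKM in replicates 3, 4, 5 and 6, against 352, 494, 356 and 492 RPKM at d0. All d15 libraries were above all d0 libraries, and replicate 4 was the highest of the 16. At d22 it was 180, 517, 342 and 616 RPKM, and at d36 it was 224, 173, 372 and 397 RPKM. The d22 and d0 libraries overlapped, and every d22 and d36 library lay below the lowest d15 library. The order of the means was d36 (291 ± 110 RPKM), d22 (414 ± 193), d0 (423 ± 80.1) and d15 (975 ± 572; SD, n = 4 each), and no neighbours in this order passed the test.

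**Figure D1:**
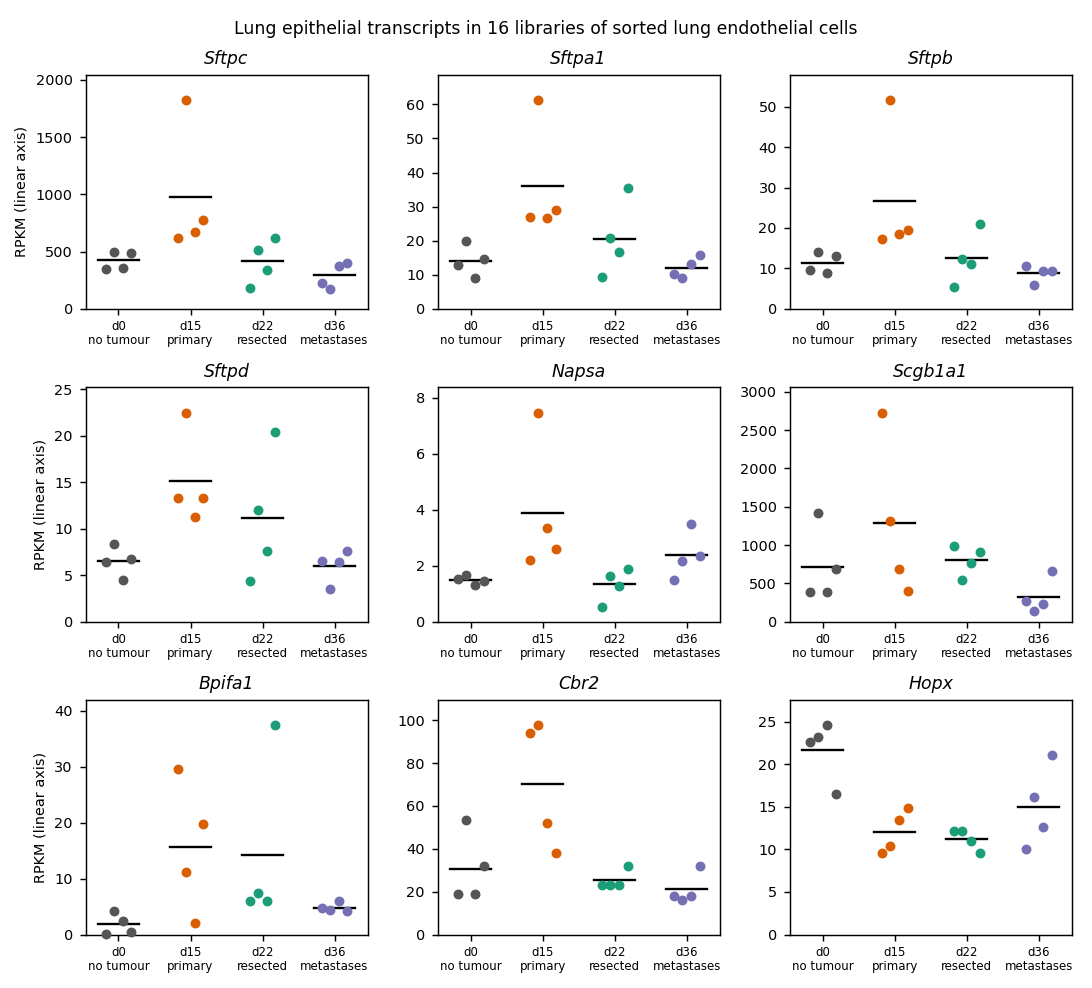
RPKM of the 9 genes in each library (points, linear axis) at d0, d15, d22 and d36, with a short bar at the group mean; 4 libraries a group. Sftpc lies between 619 and 1827 RPKM at d15 and between 173 and 397 RPKM at d36, and Hopx is highest at d0.

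Sftpa1 (chromosome 14, 41131782 to 41136452, plus strand) codes for SP-A, a collectin that coats microbes and surfactant lipid. It had 26.8, 61.4, 26.6 and 28.9 RPKM at d15, against 12.8, 19.8, 9.05 and 14.5 RPKM at d0. It had 9.35, 20.8, 16.6 and 35.3 RPKM at d22, and 10.3, 9.02, 13.1 and 15.7 RPKM at d36. The d15 libraries did not overlap with those of d0 or d36, and d22 spread across both ranges. The means were ordered d36 (12.1 ± 3.01 RPKM), d0 (14.0 ± 4.46), d22 (20.5 ± 10.9) and d15 (35.9 ± 17.0; SD, n = 4 each).

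Sftpb (chromosome 6, 72304610 to 72314371, plus strand) codes for SP-B, which spreads the surfactant lipid film and is needed for breathing after birth. It had 17.2, 51.8, 18.5 and 19.5 RPKM at d15, against 9.49, 14.0, 8.91 and 13.0 RPKM at d0. It had 5.42, 12.3, 11.2 and 20.9 RPKM at d22, and 10.5, 5.95, 9.38 and 9.36 RPKM at d36. Again d15 stood above d0 and d36 with no overlap, and replicate 4 of d15 was far above the other libraries. The order of the means was d36, d0, d22 and d15, and as for Sftpa1 no neighbours in it passed the test.

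Sftpd (chromosome 14, 41172214 to 41185149, minus strand) codes for SP-D, the second collectin of the airspace. It had 13.3, 22.5, 11.3 and 13.3 RPKM at d15, against 6.44, 8.30, 4.53 and 6.75 RPKM at d0. It had 4.36, 12, 7.64 and 20.4 RPKM at d22, and 6.55, 3.52, 6.41 and 7.56 RPKM at d36. The d15 libraries were above all d0 and d36 libraries, and d22 replicate 6 was the second highest of the 16. The order of the means was d36, d0, d22 and d15, again with no neighbours passing.

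Napsa (chromosome 7, 44572380 to 44586862, plus strand) codes for napsin A, a protease of type II cells that helps to process SP-B. It was the lowest of these 5 genes, with 2.20, 7.48, 3.34 and 2.59 RPKM at d15, against 1.54, 1.68, 1.32 and 1.45 RPKM at d0. It had 0.539, 1.64, 1.28 and 1.89 RPKM at d22, and 1.51, 2.18, 3.50 and 2.36 RPKM at d36. The d15 libraries were above those of d0 and d22 and overlapped with those of d36. Its means were ordered d22, d0, d36 and d15, with no neighbours passing. An annotated antisense gene, Gm15396, overlaps Napsa, and the strand of the libraries was not stated, so their reads cannot be told apart.

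Tests compared log2(RPKM + 1) between groups with limma over the 14303 entries that reached 1 RPKM in 4 or more libraries, with Benjamini-Hochberg adjustment and a threshold of 0.05. All 9 genes passed this filter, Napsa with 15 and Bpifa1 with 14 libraries at 1 RPKM or more. Fold changes on this scale understate those of low genes. Comparisons with d0 share the d0 libraries and those with d15 share the d15 libraries, so they are not independent of each other.

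In mice with metastases compared with mice with a primary tumour (d36 against d15), 6 of the 9 genes fell, and none rose. Over all entries 11.5% passed in either direction and 1.64% passed as lower (with median-ratio size factors, 444 of 14276 entries were lower and the same 6 genes passed). Sftpc fell by a log2 fold change of -1.67 ± 0.38 (SE, limma adjusted p = 0.00983) and Sftpa1 by -1.44 ± 0.33 (adjusted p = 0.0109). Sftpb fell by -1.37 ± 0.34 (adjusted p = 0.0157) and Sftpd by -1.19 ± 0.33 (adjusted p = 0.0266). The airway genes Cbr2 (-1.64 ± 0.33, adjusted p = 0.00438) and Scgb1a1 (-1.84 ± 0.54, adjusted p = 0.0358) fell as well. In a fit of d36 and d15 alone 5 passed, and Scgb1a1 did not (adjusted p = 0.111). That fit called 366 of 14303 entries higher and 35 lower. Napsa (-0.45, adjusted p = 0.288), Bpifa1 (-1.10, adjusted p = 0.302) and Hopx (0.26, adjusted p = 0.41) did not pass. The median log2 fold change of the 9 genes was -1.37, beside 0.06 over all entries. In 5 of the 9 genes, all but Scgb1a1 of those that fell, d36 lay below d15 with no overlap, beside 2.31% of entries. Sftpc, Sftpa1, Sftpb and Cbr2 passed in all 16 fits that each left out a library, and Sftpd and Scgb1a1 in 11 of them. The Sftpd call was lost without d36 replicates 1, 7 or 8 or d15 replicates 4 or 6, and the Scgb1a1 call without d36 replicates 1, 7 or 8 or d15 replicates 3 or 4. A replicate block kept none of these calls. In that fit only replicate 1 informs the d36 level, since numbers 7 to 9 occur at d36 alone. Over all alternative settings the changes ran from -1.85 to -1.20 (Sftpc), -1.56 to -1.09 (Sftpa1) and -1.52 to -0.45 (Sftpb). They ran from -1.32 to -0.48 (Sftpd), -1.90 to -1.45 (Cbr2) and -2.28 to -1.36 (Scgb1a1). Other cells' markers moved in this comparison too, where 9.87% of all entries passed as higher. At d36, 5 of 6 tested pan-leukocyte genes rose, with a summed level of 45.1 to 137 RPKM, against 31.7 to 38.8 RPKM at d15. These 5 (Coro1a, Cd52, Tyrobp, Fcer1g and Itgb2) reached the filter only with the d36 libraries, so being tested already favoured a rise at d36. Their count is a description. Most of the d15 sum was Lcp1, which did not pass (36.2 ± 5.08 RPKM at d36 and 34.2 ± 3.03 RPKM at d15). Of 13 pan-endothelial genes 3 fell, with a summed level of 4120 to 5406 RPKM at d36 and 5424 to 6818 RPKM at d15. Of 4 tested alveolar macrophage genes 3 rose (Marco, Chi3l3 and Cd68), with a summed level of 55.3 to 132 RPKM at d36 and 46.7 to 134 RPKM at d15. Most of that sum was Lyz2, which did not pass (62.9 ± 29.4 RPKM at d36 and 72.0 ± 39.6 RPKM at d15). Of 6 tested fibroblast genes 3 rose (Lum, Fn1 and Col1a1), with a summed level of 255 to 427 RPKM at d36 and 330 to 480 RPKM at d15. Nearly all of that sum was Mfap2, which had a lower mean at d36 (287 ± 75.5 RPKM) than at d15 (391 ± 63.6 RPKM) and did not pass. Marco, Lum and Fn1 also reached the filter only with the d36 libraries. The keratin genes Krt8 and Krt18 rose too. The part of these cells in the falls of the epithelial genes was not tested.

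In mice with a primary tumour compared with tumour-free mice (d15 against d0), 8 of the 9 genes had higher values, and 0 of these passed limma, beside 0.608% of entries that passed as higher. At an unadjusted p under 0.05 there were 7 higher genes, beside 7.26% of all entries. The 1 gene that passed was Hopx, which fell, and 1.18% of all entries passed in this comparison, 0.573% as lower. The median of the 9 genes was 1.07, beside -0.02 over all entries. The type II genes had log2 fold changes of 1.07 ± 0.38 for Sftpc (limma adjusted p = 0.167), 1.25 ± 0.33 for Sftpa1 (adjusted p = 0.0765) and 1.03 ± 0.34 for Sftpb (adjusted p = 0.14). Sftpd had 1.08 ± 0.33 (adjusted p = 0.111) and Napsa 0.86 ± 0.26 (adjusted p = 0.107). In these 5 genes d15 lay above d0 with no overlap, beside 5.34% of all entries. The calls changed with single left-out libraries, also of other groups, since all groups share an estimate of the spread. Without d36 replicate 9, 4 genes passed (Bpifa1, Cbr2, Hopx and Sftpa1), without d22 replicate 6 there were 2 (Bpifa1 and Sftpa1), and the range over all left-out libraries was 0 to 4. Over all entries, 258 of 14123 rose and 244 fell without d36 replicate 9. Without d22 replicate 6, 87 of 14167 rose and 89 fell. The Hopx call was lost except without d0 replicate 4 or d36 replicates 1, 7 or 9. In a fit of d15 and d0 alone, 3 passed (Hopx, Sftpa1 and Sftpd), and with array weights 5 (those and Bpifa1 and Cbr2). Of 14303 entries, the fit of 2 groups called 262 higher and 216 lower, and array weights 370 higher and 367 lower. Of 6 tested pan-leukocyte genes 0 passed in limma (0 at an unadjusted p under 0.05), with a summed level of 31.7 to 38.8 RPKM at d15 and 32.1 to 40.1 RPKM at d0. Nearly all of that sum was Lcp1 (34.2 ± 3.03 RPKM at d15 and 34.5 ± 2.11 RPKM at d0). Of 4 tested alveolar macrophage genes 0 passed in limma (1 at an unadjusted p under 0.05), with a summed level of 46.7 to 134 RPKM at d15 and 25.1 to 48.4 RPKM at d0. Most of the macrophage sum came from Lyz2, the lysozyme of macrophages that type II cells also express (72.0 ± 39.6 RPKM at d15 and 33.3 ± 6.96 RPKM at d0). Its part in the higher values was not tested.

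The authors' deposited table gives fold changes for d15, d22 and d36 with no comparison group named. In the authors' deposited table, 5 of the 9 genes had an adjusted p under 0.05 at d15, beside 7.89% of its entries. In the authors' deposited table these were Sftpd (1.21, adjusted p = 8.85e-07), Napsa (1.32, 0.000216), Sftpa1 (1.23, 0.0138), Sftpb (1.11, 0.038) and Hopx (-0.78, 0.000207). Sftpc stood at 1.07 with an adjusted p of 0.0593 in the authors' deposited table. For d22 the authors' deposited table had 2 of the 9, Hopx (-0.90, 8.36e-09) and Bpifa1 (1.44, 0.0488), beside 25.6% of entries, and for d36 it had 0, beside 22.2%.

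**Figure D2:**
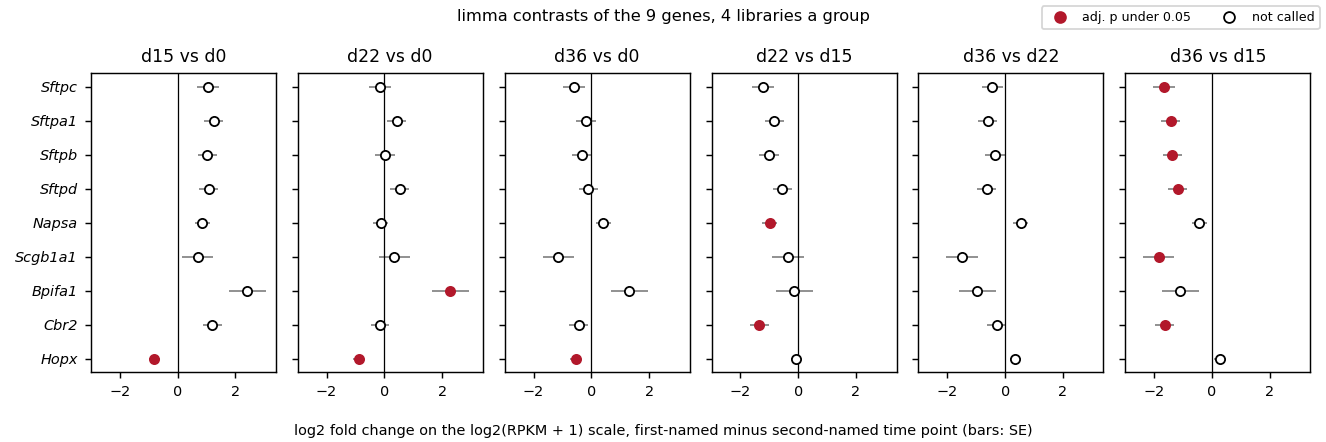
Log2 fold changes (log2(RPKM + 1) scale) of the 9 genes in each of the 6 comparisons, with bars of 1 standard error of limma; filled red points passed the adjusted threshold and open points did not. In all, 8 genes sit above zero for d15 against d0 with Hopx below, and 6 filled points lie below zero for d36 against d15.

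After resection of the tumour (d22 against d15), 2 of the 9 genes passed, and both fell. Over all entries 3.06% passed and 1.06% passed as lower (278 of 14276 with median-ratio size factors). They were Cbr2 (-1.35 ± 0.33, limma adjusted p = 0.0357) and Napsa (-0.99 ± 0.26, adjusted p = 0.0466). Sftpc had -1.23 ± 0.38 (adjusted p = 0.0823), and in these 3 genes d22 lay below d15 with no overlap, beside 4.80% of entries. Sftpa1 (-0.83), Sftpb (-1.02) and Sftpd (-0.55) had adjusted p of 0.167, 0.103 and 0.37. The Cbr2 call passed in 10 of the 16 fits that left out a library and the Napsa call in 5. The Cbr2 call was lost without any single d22 library or without d15 replicates 3 or 4. The Napsa call held without d15 replicate 3 or any single d36 library, and its change was -0.69 without d15 replicate 4.

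Against d0, no surfactant gene passed at d22 or d36. At d22, 2 of the 9 genes passed (Bpifa1 up and Hopx down), beside 15.2% of all entries, 8.09% higher and 7.10% lower. At d36, 1 passed (Hopx down), beside 24.0% of all entries, 7.37% lower. The log2 fold changes of Sftpc were -0.16 at d22 (limma adjusted p = 0.819) and -0.60 at d36 (adjusted p = 0.265). Those of Sftpa1 were 0.42 (adjusted p = 0.423) and -0.18 (adjusted p = 0.722). Between d36 and d22, limma called 0 of the 9 genes, beside 11.8% of all entries, and 1 had an unadjusted p under 0.05, beside 28.3%. That gene was Scgb1a1 (-1.49, adjusted p = 0.0809).

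Over the 16 libraries together, the ratios of Sftpb, Sftpa1 and Sftpd to Sftpc varied less than the levels of these genes. Sftpc covered a 10.5-fold range over the 16 libraries, and Sftpb per 100 RPKM of Sftpc covered 2.36 to 4.68 RPKM, a 1.98-fold range. The Sftpb ratio was 2.51 to 2.83 at d15, where Sftpc covered a 2.95-fold range, against 2.50 to 2.84 at d0, where Sftpc covered a 1.4-fold range. It was 2.38 to 3.39 at d22, where Sftpc covered a 3.43-fold range. At d36 it was 2.36 to 4.68, a 1.98-fold range, where Sftpc covered a 2.29-fold range and Sftpb a 1.76-fold range. Sftpa1 per 100 RPKM of Sftpc ran from 2.54 to 5.74 RPKM, a 2.26-fold range, and Sftpd from 1.23 to 3.32 RPKM, a 2.69-fold range. Within d0 the Sftpa1 ratio covered a 1.57-fold range and the Sftpd ratio a 1.44-fold range, beside 1.4-fold for Sftpc itself. The Sftpd ratio was 2.24 to 3.32 at d22, above all libraries of d15 (1.23 to 2.16) and d0 (1.27 to 1.83). The Sftpa1 ratio was 4.03 to 5.74 at d22, above the 2.54 to 4.00 of d0. These comparisons belong to the 42 exact tests of ratios described with Napsa.

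Deviations from the group means on the log2 scale moved with those of Sftpc for each of the 4 other surfactant and type II genes. Permutation tests within groups (n = 16 libraries, 8 genes compared with Sftpc, adjusted by the Benjamini-Hochberg method) gave r = 0.93 for Sftpa1 (p = 3e-05, adjusted p = 0.00024), with rho = 0.91. For Sftpb r was 0.91 (permutation adjusted p = 0.00112) with rho = 0.82, and for Sftpd r was 0.89 (permutation adjusted p = 0.00112) with rho = 0.84. For Napsa r was 0.85 (permutation adjusted p = 0.00686) with rho = 0.84. Without the 2 libraries with the most extreme Sftpc, d22 replicate 1 and d15 replicate 4, r was 0.87, 0.82, 0.83 and 0.73 in the same order of genes. Scgb1a1 (r = 0.23, permutation adjusted p = 0.511), Bpifa1 (0.28, 0.511) and Hopx (-0.12, 0.684) did not pass. Cbr2 did not pass by r (0.50, permutation adjusted p = 0.0525) and passed by rho (0.54, permutation adjusted p = 0.0344). All genes of a library share its RNA and depth.

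**Figure D3:**
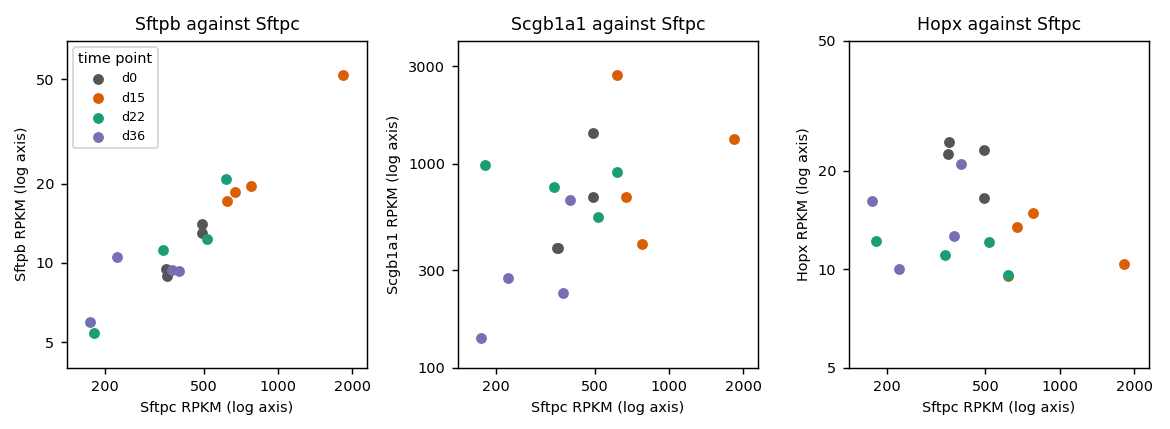
RPKM of Sftpb, Scgb1a1 and Hopx against Sftpc in the 16 libraries (log axes, coloured by group). Sftpb rises with Sftpc over the 16 libraries, less closely within d36, where its highest value is not at the highest Sftpc. Scgb1a1 and Hopx scatter.

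Napsa was higher relative to Sftpc at d36. It stood at 0.594 to 1.26 RPKM per 100 RPKM of Sftpc at d36, against 0.294 to 0.438 at d0, 0.332 to 0.497 at d15 and 0.300 to 0.375 at d22, with no overlap. The exact permutation test, two-sided with 4 libraries against 4, gave p = 0.0286 for each of these 3 comparisons, the smallest it allows. In all, 42 such tests of 7 ratios were made, 9 of them reached this value, and after adjustment over the 42 none passed (lowest adjusted p = 0.133).

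**Figure D4:**
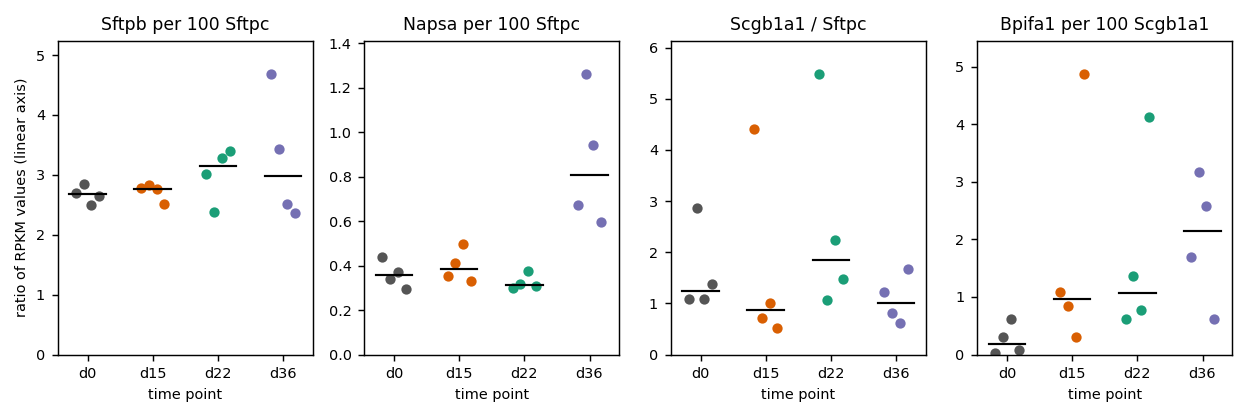
Ratios of RPKM values in each library by group (points, linear axes from 0) with the group median (bar): Sftpb and Napsa per 100 RPKM of Sftpc, Scgb1a1 over Sftpc, and Bpifa1 per 100 RPKM of Scgb1a1. The Sftpb ratio stays between 2.36 and 4.68, and all 4 Napsa ratios at d36 lie above those of the other groups. The Scgb1a1 ratio has single high libraries, and the Bpifa1 ratio at d22 and d36 lies above all d0 libraries.

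The airway genes follow. Scgb1a1 (chromosome 19, 9083636 to 9087958, minus strand) codes for the secretoglobin of club cells, an abundant airway secretory protein. It had 2730, 1320, 682 and 404 RPKM at d15, against 384, 1413, 388 and 683 RPKM at d0. At d22 it had 985, 546, 764 and 905 RPKM, and at d36 it had 275, 139, 231 and 665 RPKM. Its d15 libraries overlapped with those of d0, and its highest library, d15 replicate 3, was not the one in which Sftpc was highest. The ratio of Scgb1a1 to Sftpc ran from 0.519 to 5.48, a 10.6-fold range. The fold change at d15 against d0 was 0.70 ± 0.54 (limma adjusted p = 0.57). The means were ordered d36, d0, d22 and d15, with no neighbours passing.

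Cbr2 (chromosome 11, 120729489 to 120732114, minus strand) codes for a carbonyl reductase that is abundant in club cells. It had 94.0, 97.6, 52.1 and 37.9 RPKM at d15, against 19.1, 53.3, 18.7 and 31.8 RPKM at d0. At d22 it had 22.9, 23.4, 22.9 and 31.9 RPKM, and at d36 it had 17.8, 16.2, 18.2 and 32.1 RPKM. The d15 libraries lay above all d22 and d36 libraries and overlapped with d0. At d15 against d0 its fold change was 1.19 ± 0.33 (limma adjusted p = 0.0799). Its deviations from the group means followed those of Scgb1a1 (r = 0.91 over the 16 libraries, as a description), while the ratio to Scgb1a1 ran from 2.33 to 11.6 per 100.

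Bpifa1 (chromosome 2, 154142880 to 154149219, plus strand) codes for a secreted antimicrobial and surface-active protein of the larger airways. At d22 it had 6.08, 7.48, 5.92 and 37.4 RPKM, against 0.0938, 4.27, 2.37 and 0.481 RPKM at d0. At d15 it had 29.5, 11.2, 2.05 and 19.7 RPKM, and at d36 it had 4.68, 4.43, 5.96 and 4.13 RPKM. Every d22 library was above every d0 library, beside 14.2% of all entries, and the lowest d0 value corresponds to approximately 9.89 reads. The d15 and d36 libraries overlapped with those of d0. Bpifa1 rose at d22 against d0 by 2.28 ± 0.65 (limma adjusted p = 0.0256). It passed in 13 of the 16 fits that left out a library, and without d22 replicate 6 the change was 1.69 with an adjusted p of 0.0977. The call was lost without d0 replicates 1 or 4 as well. At d15 against d0 it had 2.42 ± 0.65 (adjusted p = 0.0777). The order of its means was d0, d36, d22 and d15, and that of Cbr2 was d36, d22, d0 and d15, with no neighbours passing in either. Relative to Scgb1a1, Bpifa1 spread 199-fold over the libraries, from 0.0244 to 4.87 per 100 RPKM. This ratio was 0.617 to 4.13 at d22 and 0.620 to 3.17 at d36, above the 0.0244 to 0.610 of d0. At d15 (0.300 to 4.87) it overlapped with d0. The exact permutation test gave p = 0.0286 for d22 and for d36 against d0, and neither passed after adjustment (adjusted p = 0.133).

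Hopx (chromosome 5, 77086988 to 77115121, minus strand) codes for a homeodomain-only protein and is used as a marker of alveolar type I cells. It had 9.54, 10.4, 13.4 and 14.9 RPKM at d15, against 22.6, 23.2, 24.6 and 16.5 RPKM at d0. At d22 it had 12.2, 12.1, 11 and 9.59 RPKM, and at d36 it had 10.0, 16.2, 12.6 and 21.0 RPKM. The d15 and d22 libraries lay below all d0 libraries, beside 6.94% and 12.3% of all entries, and d36 overlapped with d0. Hopx fell against d0 by -0.80 ± 0.19 at d15 (limma adjusted p = 0.0472), by -0.88 ± 0.19 at d22 (adjusted p = 0.00605) and by -0.54 ± 0.19 at d36 (adjusted p = 0.0471). The d22 call passed in all 16 fits that left out a library, and the d15 and d36 calls in 4 each. The d36 call held without d36 replicate 9, d15 replicates 3 or 6 or d0 replicate 4. Some cardiomyocyte genes, which mark the muscle sleeve of pulmonary veins, were lower in the same comparisons. Of 6 tested, 1 fell at d15 (Myl7, -2.10, adjusted p = 0.0458), 2 at d22 (Myl7, -1.47, and Sln, -1.0) and 2 at d36 (Myl7, -1.82, and Sln, -1.15). Sln reached the filter only with its d0 libraries, so being tested already favoured its falls. The shares of all entries that passed as lower were 0.573%, 7.10% and 7.37%. At d15, 1 of the 6 was above zero (Myl4, 0.12). The summed level of the cardiomyocyte genes was 13.0 to 44.1 RPKM at d0, 7.51 to 11.7 RPKM at d15, 6.38 to 13.8 RPKM at d22 and 4.39 to 13.7 RPKM at d36. In d36 replicates 1, 7, 8 and 9 it was 13.7, 4.39, 8.00 and 13.1 RPKM. The part of these genes in the Hopx values was not tested. Tppp3 of the ciliated list passed as lower against d0 too, at d15 (-1.04), d22 (-1.16) and d36 (-0.85). The order of the Hopx means was d22, d15, d36 and d0, and of these neighbours d36 and d0 differed in the test. The annotated antisense gene Hopxos overlaps Hopx from 77094532 to 77102303, and the strand of the libraries was not stated.

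Genes most like 3 of these transcripts over the 16 libraries were ranked by Pearson's r of log2(RPKM + 1), as a description. For Sftpc they were Sftpb (0.95), Sftpa1 (0.93), Sftpd (0.88), the phosphate transporter gene Slc34a2 (0.88) and the chitinase-like gene Chi3l1 (0.85). For Scgb1a1 they were Wfdc2 (0.86), Tmem80 (0.83), BC028528 (0.83), the secretoglobin gene Scgb3a2 (0.82) and 5430434G16Rik (0.82). For Hopx they were E130218H05 (0.995), Enho (0.95), Dnaic1 (0.90), Ms4a8a (0.90) and Chst1 (0.90). E130218H05, for which the sources used here hold no annotation, stood at 39.9 to 45.3 RPKM per 100 RPKM of Hopx in every library.

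Other epithelial marker genes were examined from lists chosen with earlier results known. Of 14 further alveolar type II genes, 11 were tested. At d15 against d0, 0 passed in limma and 6 had an unadjusted p under 0.05, beside 16.5% of all entries. Of these 11 genes 10 were above zero, beside 46.7% of all entries, and their median was 0.62. At d36 against d15, 0 of the 11 passed in limma and 5 had an unadjusted p under 0.05, beside 26.1% of all entries. In that comparison 2 of the 11 were above zero, beside 59.6% of all entries, and their median was -0.31. At d22 against d15, 0 of the 11 passed in limma and 3 had an unadjusted p under 0.05, beside 20.3% of all entries, with a median of -0.40. Abca3, the lipid transporter of surfactant storage bodies and singled out after its values were seen, stood at 15.7 ± 1.53 RPKM at d15 and 13.7 ± 1.34 RPKM at d0 (SD, n = 4 each), and its fold change was 0.19 (adjusted p = 0.451). At d36 against d0, the transcription factor gene Etv5 (0.66, adjusted p = 0.0109) and the fatty acid synthase gene Fasn (0.99, adjusted p = 0.0201) rose, 2 of 11 beside 16.6% of all entries, a share near the background.

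Of 10 further club cell genes, 6 were tested. At d15 against d0, 2 rose, the secretoglobin gene Scgb3a1 and the monooxygenase gene Fmo2 (0.64 ± 0.15, limma adjusted p = 0.0464), with a list median of 0.77, beside 0.608% of all entries that passed as higher. Scgb3a1 stood at 25.6 ± 10.5 RPKM at d15 and 7.59 ± 1.60 RPKM at d0, a fold change of 1.58 ± 0.21 (adjusted p = 0.00302). It fell at d22 against d15 by -1.48 (adjusted p = 0.00192) and at d36 against d15 by -1.07 (adjusted p = 0.00422). Aldh1a1, a retinal dehydrogenase gene, rose at d22 against d0 (0.71, adjusted p = 0.0063) and fell at d36 against d22 (-0.73, adjusted p = 0.00665) and d36 against d15 (-0.58, adjusted p = 0.0217). Aldh1a7 fell at d36 against d22 (-0.72, adjusted p = 0.0375). Fmo2 was also higher against d0 at d22 (0.62, adjusted p = 0.0112) and d36 (0.62, adjusted p = 0.00764).

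Of 12 further alveolar type I genes, 6 were tested and 1 changed at d15 against d0, beside 1.18% of all entries. Gprc5a, a membrane receptor gene of type I cells, fell by -0.92 ± 0.15 (limma adjusted p = 0.0106), with 7.52 ± 1.75 RPKM at d15 and 15.1 ± 2.97 RPKM at d0 (SD, n = 4 each). It fell at d22 against d0 too (-1.05, adjusted p = 0.000634), while at d36 against d0 its change was 0.23 (adjusted p = 0.274). Gprc5a rose at d36 against d22 (1.29, limma adjusted p = 0.000189) and against d15 (1.15, adjusted p = 0.000273). The shares of all entries that passed as higher there were 8.73% and 9.87%. Ager, the receptor for advanced glycation end products and a defining type I gene, had 22.9 ± 7.79 RPKM at d15 and 20.4 ± 8.29 RPKM at d0 (0.16, adjusted p = 0.86).

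Of 11 ciliated cell genes, 4 were tested. At d15 against d0, Tmem212 rose (0.84, limma adjusted p = 0.0372) and Tppp3, a tubulin-binding protein gene, fell (-1.04, adjusted p = 0.0254). Of all entries, 0.608% passed as higher and 0.573% as lower in this comparison. Tmem212 was low, with 1.73 ± 0.432 RPKM at d15 and 0.546 ± 0.425 RPKM at d0. It reached the filter only with its d15 libraries, so being tested already favoured higher values at d15 in each of its comparisons. Tppp3 was also lower against d0 at d22 (-1.16, adjusted p = 0.002) and d36 (-0.85, adjusted p = 0.00653), and Tmem212 fell against d15 at d22 (-0.97, adjusted p = 0.0106) and d36 (-0.82, adjusted p = 0.0099). Cd24a fell at d22 against d15 (-0.75, adjusted p = 0.0195) and against d0 (-0.50, adjusted p = 0.0442), and rose at d36 against d22 (0.82, adjusted p = 0.00412). Of the further airway secretory genes 2 were tested and 0 passed in limma in any comparison. At an unadjusted p under 0.05 there was 1 at d15 against d0 and 1 at d36 against d15. Of all entries, 16.5% and 26.1% reached this in the same order. Bpifb1, of the same family as Bpifa1, had 5.43 ± 2.39 RPKM at d15 and 1.31 ± 0.896 RPKM at d0 (1.47 ± 0.45, adjusted p = 0.111). Of 9 basal and neuroendocrine genes, 3 were in the table and 0 were tested.

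Of 15 pan-epithelial genes, 9 were in the table and 6 were tested. The summed level of the 9 was 5.15 to 10.3 RPKM at d0, 9.62 to 15.8 RPKM at d15, 7.58 to 12 RPKM at d22 and 12.9 to 156 RPKM at d36. In d36 replicates 1, 7, 8 and 9 it was 156, 120.5, 82.4 and 12.9 RPKM, so replicate 9 lay within the d15 range. At d15 and at d22 against d0, 0 passed in limma, with 1 and 0 at an unadjusted p under 0.05. At d36 against d0 the keratin genes Krt8 and Krt18, which simple epithelia and many carcinoma cells express, rose. Of all entries, 16.6% passed as higher in this comparison. Krt8 had 33.5 ± 23.7 RPKM at d36 and 0.755 ± 0.369 RPKM at d0 (3.75 ± 0.57, limma adjusted p = 0.000348). Krt18 ran from 5.66 to 90.2 RPKM at d36 and from 0.686 to 2.69 RPKM at d0 (3.98 ± 0.54, adjusted p = 0.00014). The remaining genes were low in all 16 libraries: Krt19 at 1.02 to 4.00 RPKM, Cldn3 at 0.673 to 3.45, Krt7 at 0.562 to 1.25, Elf3 at 0.146 to 1.52, Cldn7 at 0.296 to 1.26 and Perp at 0.0193 to 0.632 RPKM. Cldn3, a tight junction gene, fell at d36 against d15 (-0.76, adjusted p = 0.0126). In the same d36 libraries the means of Sftpc, Sftpa1, Sftpb and Sftpd were below those of d0, and that of Napsa was above it (log2 fold change 0.41). None of these differences passed in limma. Etv5 and Fasn of the type II list passed as higher at d36 against d0.

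**Figure D5:**
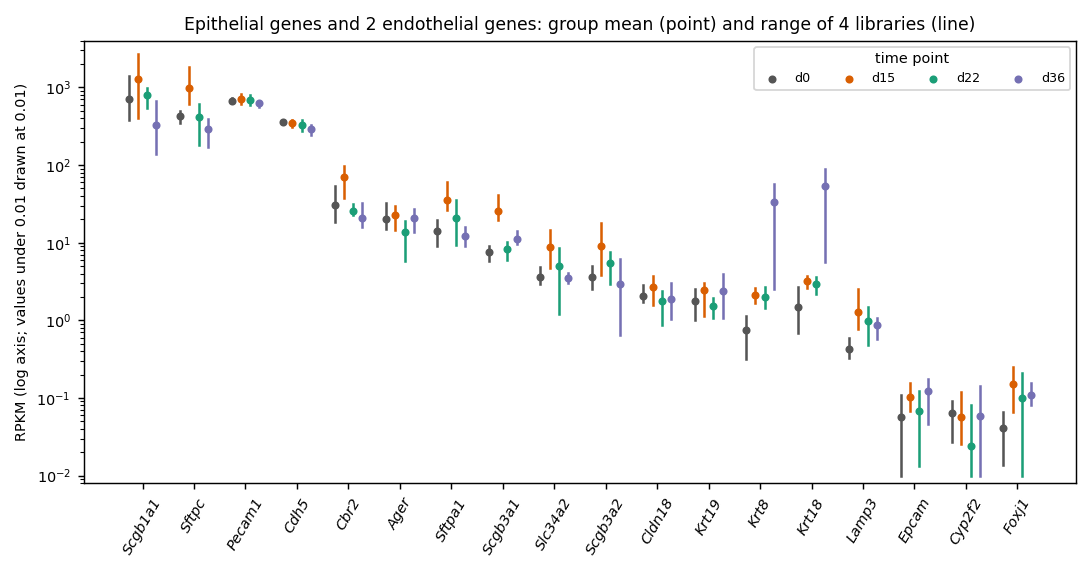
RPKM (log axis, values under 0.01 drawn at 0.01) of epithelial genes and of the endothelial genes Pecam1 and Cdh5, as group means (points) with the range of the 4 libraries (lines) at d0, d15, d22 and d36; the genes plotted were chosen after their values were seen. Scgb1a1 and Sftpc lie near the endothelial genes, Epcam, Cyp2f2 and Foxj1 lie below 0.25, and Krt8 and Krt18 stand out at d36.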

How the data were processed

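RNA of sorted lung endothelial cells was sequenced in 16 libraries, 4 at each of d0, d15, d22 and d36. Per the labels' protocols, a PicoPure kit yielded the RNA, of which 10 ng entered the SMARTer Ultra Low library kit. The authors deposited RPKM values of 17715 entries for each library, per the file headers, and beside them log2 fold changes and adjusted p-values. STAR, DESeq2 and mm10 stand in the submitters' processing notes. For the annotation, the transcript length behind RPKM and the strand setting, the answer is not given in the sources used here.

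The deposited RPKM values were analysed as log2(RPKM + 1) with R 4.3.3 and limma 3.58.1 (intensity trend, a single fit over the 4 groups, no covariate), over the 14303 entries that reached 1 RPKM in 4 or more libraries. The 6 contrasts were tested two-sided, with Benjamini-Hochberg adjustment within a contrast at 0.05. Ratios were tested with exact permutation tests and relations with Sftpc by permuting libraries within groups (Python 3.11.15, scipy 1.17.1). The fit was checked on simulated data. Depth was estimated from the step size of low values: 406 of 4043 low entries came out as whole reads in every library (tolerance 0.1 read, up to 40 reads), too few to recover counts for a count test. The absolute scale rests on 62 genes with a single transcript. Gene positions are from GENCODE M21 on mm10.

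The 9 genes and the marker lists were chosen with earlier results of these data known. The rule for named genes takes these 9, allows the genes of a list that passed or were among its 3 highest, and takes the 5 genes most like Sftpc, Scgb1a1 and Hopx, and other genes were named after their values were seen. Alternatives were another pseudocount, no filter, fits of 2 groups, array weights, a replicate block, median-ratio size factors and leaving out each library.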

Additional observations from a re-analysis of the deposited data

Results flagged for a closer look

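Each gene's 4 values in a group were checked for a single library far from the others with Dixon's test at its 95% critical value. Of 36 such sets 6 exceeded it, where chance gives about 1 in 20 for a single set. The genes share libraries, so the 36 sets are not independent and the count cannot be weighed against that rate. At d15, replicate 4 stood far above the rest of its group in Sftpc (1827 RPKM), Sftpa1 (61.4 RPKM) and Sftpb (51.8 RPKM). At d22, replicate 6 stood above the rest in Bpifa1 (37.4 RPKM) and Cbr2 (31.9 RPKM). At d36, replicate 9 stood above the rest in Cbr2 (32.1 RPKM).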

How the results depend on the processing

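The numbers of the 9 genes that passed were 1 (d15 against d0), 2 (d22 against d0), 1 (d36 against d0), 2 (d22 against d15), 0 (d36 against d22) and 6 (d36 against d15). Over all entries 1.18%, 15.2%, 24.0%, 3.06%, 11.8% and 11.5% passed, in the same order. With array weights they were 5 for d15 against d0, 4 for d22 against d15, 2 for d36 against d0 and 2 for d36 against d22. Of 14303 entries, 370 rose and 367 fell, 852 and 429, 3602 and 2084, and 2553 and 1464, in the same order. In fits of 2 groups they were 3 for d15 against d0, 1 for d22 against d15, 0 for d36 against d0 and 5 for d36 against d15 (Scgb1a1 lost). Here 262 of 14303 entries rose and 216 fell, 541 and 251, 1524 and 528, and 366 and 35, in the same order. With median-ratio size factors 0 passed for d15 against d0, and with no filter 0 passed for d15 against d0, 1 for d22 against d15 and 0 for d36 against d0. Size factors called 110 of 14276 entries higher and 79 lower for d15 against d0. With no filter 65 of 17645 entries rose and 59 fell for d15 against d0. They were 281 and 120 for d22 against d15, and 3131 and 1123 for d36 against d0. Leaving out single libraries gave 0 to 4, 1 to 2, 0 to 2, 0 to 2, 0 to 1 and 4 to 6 in the order of the first sentence. The counts over all entries moved as well. For d15 against d0, 258 of 14123 entries rose and 244 fell without d36 replicate 9. Without d0 replicate 3, 14 of 14239 rose and 11 fell. The cause of these differences was not tested.

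The labels do not state that replicate numbers pair the libraries. Of 9 pairs with the same number, 2 correlated over 0.1 (r from -0.111 to 0.216). The median r was 0.044 for these pairs and -0.023 for pairs with different numbers. Such low correlations cannot decide whether the numbers pair libraries or share a batch. With a replicate block, 2 genes passed for d15 against d0 (Bpifa1 and Cbr2, with Hopx lost), 2 for d22 against d15 (Cbr2 and Sftpc, with Napsa lost), 2 for d36 against d0 (Bpifa1 and Hopx) and 0 for d36 against d15. Of 14303 entries, 79 rose and 23 fell, 477 and 258, 965 and 169, and 438 and 27, in the same order. The block reversed uncalled values in 10 cases: Bpifa1 (0.37) for d22 against d15, Cbr2 (0.36) and Sftpb (-0.064) for d22 against d0, Sftpa1 (0.13), Sftpb (0.45) and Sftpd (0.51) for d36 against d0, Hopx (-0.23), Sftpb (0.52) and Sftpd (0.0087) for d36 against d22 and Hopx (-0.35) for d36 against d15. Array weights reversed Sftpb for d22 against d0 (-0.15) and Sftpd for d36 against d0 (0.006), and size factors Sftpb for d22 against d0 (-0.025). None of the values that had passed reversed under these settings.

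Leaving out libraries also turned the sign of 8 uncalled values. For d22 against d0 these were Cbr2 (-0.34 to 0.15), Napsa (-0.25 to 0.056), Sftpb (-0.26 to 0.33) and Sftpc (-0.40 to 0.19). For d22 against d15 they were Bpifa1 (-0.81 to 0.30), Hopx (-0.17 to 0.022) and Scgb1a1 (-0.79 to 0.13), and for d36 against d0 Sftpd (-0.25 to 0.084). Over all entries, 87 rose and 82 fell for d15 against d0, against 370 and 367 with array weights, 262 and 216 in a fit of 2 groups and 79 and 23 with the block. Size factors moved the split for d36 against d0 to 1956 rises and 1645 falls, against 2376 and 1054. The lowest values rest on few reads: approximately 9.89 for Bpifa1 and 91.1 for Napsa.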
